A study of Mus musculus with 6 samples.

Results

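The genes described here were 9 proteoglycans, taken by symbol as a family and not by a cutoff on their values: *Vcan*, *Acan*, *Ncan*, *Cspg4*, *Dcn*, *Bgn*, *Lum*, *Fmod* and *Ogn*. Each was matched by its Ensembl identifier, and all 9 were found among the 55401 genes of the deposited count table and among the 22318 genes with enough counts to be tested. The samples were bulk RNA-seq libraries of primary Schwann cells (SCs), the glia of peripheral nerve, cultured from dorsal root ganglia (DRG) of adult mice, 3 labelled WT and 3 labelled Plxnb1-/-. The comparison asked how SCs without Plexin-B1, a transmembrane receptor for class 4 semaphorins, differed from WT SCs. The Plxnb1-/- mice carried a gene-trap insertion (a transmembrane domain and *lacZ* cassette) on a C57BL/6 background. The loss was constitutive, so that every cell type of the source ganglia carried the insertion. The controls were littermates labelled WT, while the study's methods allow heterozygous littermates among its controls in general. All 6 cultures had received 10% serum, 2 µM forskolin and 10 nM neuregulin, had been depleted of fibroblasts with an antibody against Thy1, and were used at passages 3 to 5 with a stated purity above 80%. The sex of the mice was not given, and the labels do not say whether each replicate was a culture from a separate animal, so p-values measure the spread between these libraries.

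The libraries held 59252048 to 77280964 counts each, and 3 counts, taken as the limit of detection, corresponded to 0.0383 to 0.0513 CPM (counts scaled to one common total per library). These limits cover counting error only. The WT replicates 1, 2 and 3 had 61.8, 45.4 and 96.4 CPM of *Plxnb1* and the mutant replicates 13.1, 16.6 and 18.6 CPM, a log2 fold change of −2.08 (SE 0.25, edgeR adjusted p = 0.0449). Every Plxnb1-/- library was lower than every WT library in the targeted gene, whose remaining counts include the exons ahead of the insertion. The cells had the defining markers of SCs, among them *Sox10* (486 ± 47.8 CPM for WT and 550 ± 38.5 CPM for Plxnb1-/- libraries, SD, n = 3 each). Fibroblast markers were also present. *Thy1*, the antigen used for the depletion, reached 384 to 652 CPM, while *Tcf21* was at or under 3 counts in every library.

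A proteoglycan is a core protein to which long sulfated sugar chains are attached. *Vcan* (versican), *Acan* (aggrecan) and *Ncan* (neurocan) encode lecticans, large secreted chondroitin sulfate proteoglycans that bind hyaluronan and are held there by link proteins of the *Hapln* family. *Cspg4* encodes NG2, a chondroitin sulfate proteoglycan that spans the cell membrane. *Dcn* (decorin), *Bgn* (biglycan), *Lum* (lumican), *Fmod* (fibromodulin) and *Ogn* (osteoglycin) encode small leucine-rich proteoglycans, which bind collagen and shape its fibrils. Chondroitin sulfate proteoglycans are known as inhibitors of axon growth and are deposited in scar tissue after nerve injury, where enzymes that digest the chains have been used to ease regeneration.

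The 9 genes lie on 7 chromosomes of the GRCm38 build. Of the lecticans, *Vcan* (ENSMUSG00000021614) is at chr13:89655312-89742509 on the minus strand, *Acan* (ENSMUSG00000030607) at chr7:79053483-79115099 on the plus strand, and *Ncan* (ENSMUSG00000002341) at chr8:70093085-70120873 on the minus strand. Each has a link protein gene beside it. The gap is 43.7 kb between *Vcan* and *Hapln1*, 0.003 kb between *Acan* and *Hapln3*, and 2.22 kb between *Ncan* and *Hapln4*. *Cspg4* (ENSMUSG00000032911) is at chr9:56865033-56899870 on the plus strand, on the chromosome of *Plxnb1* and 52.2 Mb from it. *Dcn* (ENSMUSG00000019929, chr10:97479609-97518143) and *Lum* (ENSMUSG00000036446, chr10:97565128-97572703) are neighbours on the plus strand with 47.0 kb between them, followed by *Kera* and *Epyc*. *Fmod* (ENSMUSG00000041559, chr1:134037254-134048277, plus strand) lies near *Prelp* and *Optc*. *Ogn* (ENSMUSG00000021390, chr13:49608046-49624501, plus strand) lies beside *Omd* and *Aspn*, within *Cenpp* on the opposite strand. *Bgn* (ENSMUSG00000031375, chrX:73483602-73495933, plus strand) is on the X chromosome. No exon of the 9 genes overlapped an exon of another annotated gene. The counts cover all exons of a gene, so isoforms, such as those of *Vcan* that differ in the regions carrying the chains, were not separated.

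Promoter sequences from RefSeq (GRCm38.p6) were available here for 7 of the 9 genes, without *Dcn* and *Lum*. The 250 bases before the annotated start are printed for *Vcan*, the only one of the 9 that either count test called, for *Bgn*, the most highly expressed, and for *Fmod*, whose values ran opposite to both in the WT libraries, as given below. They are read 5′ to 3′ on the strand of the gene, at chr13:89742513-89742762 (minus), chrX:73483351-73483600 (plus) and chr1:134037004-134037253 (plus), and capitals mark GC boxes (GGGCGG or its reverse complement CCGCCC).
Vcan: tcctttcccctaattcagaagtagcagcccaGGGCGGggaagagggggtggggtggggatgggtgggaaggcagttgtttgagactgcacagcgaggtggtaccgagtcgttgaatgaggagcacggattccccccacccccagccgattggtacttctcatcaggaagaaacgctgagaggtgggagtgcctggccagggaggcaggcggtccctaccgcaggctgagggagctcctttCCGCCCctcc
Bgn: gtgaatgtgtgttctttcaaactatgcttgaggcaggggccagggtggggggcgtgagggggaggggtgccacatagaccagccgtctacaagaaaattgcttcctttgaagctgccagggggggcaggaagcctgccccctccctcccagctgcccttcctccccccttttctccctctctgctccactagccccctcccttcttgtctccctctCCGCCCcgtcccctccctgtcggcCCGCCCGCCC
Fmod: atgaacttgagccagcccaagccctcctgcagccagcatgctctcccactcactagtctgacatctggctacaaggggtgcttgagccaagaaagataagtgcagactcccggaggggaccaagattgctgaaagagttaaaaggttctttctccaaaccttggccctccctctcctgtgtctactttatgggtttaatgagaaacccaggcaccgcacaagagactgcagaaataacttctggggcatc
*Vcan* held 2 GC boxes, *Bgn* held 3 and *Fmod* held 0, and the GC content of the windows was 62.4%, 64.4% and 51.2%, beside a median of 52.4% over 32851 promoters. A GC box was found in 5 of the 7 promoters and in 32.7% of all promoters. TATAAA was found in 2 of the 7 (*Ncan* and *Ogn*) and in 12.4% of all promoters, and GGAATG, a motif of TEAD factors, in 2 of the 7 and in 12.6%. The *Ncan* and *Cspg4* windows, set by RefSeq, reach into the genes as placed above, and the *Ncan* match to TATAAA lies in that stretch. Neither TGANTCA (AP-1, 6.75% of all promoters) nor ACAAAG (SOX factors, 16.5%) was in any of the 7 windows. Both strands were searched, overlapping matches were counted separately, also between motifs, and a match describes letters and not a bound site.

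To compare levels between genes, CPM were divided by the length of the exons in kb. On this scale *Bgn* was the most highly expressed of the 9, at 292.5 ± 39.4 CPM per kb (SD over the 6 libraries). *Dcn* followed at 48.1 ± 4.83, *Cspg4* at 31.8 ± 5.18 and *Vcan* at 24.3 ± 3.72 CPM per kb. *Fmod* at 18.4 ± 3.95, *Lum* at 17.4 ± 1.34 and *Ogn* at 14.9 ± 1.95 CPM per kb formed the next group. *Acan* and *Ncan*, the cartilage and brain lecticans, were at 0.231 ± 0.0880 and 0.208 ± 0.0415 CPM per kb. Between neighbours in this order the ranges over libraries overlapped, except between *Bgn* and *Dcn* and between *Ogn* and *Acan*. Thus 7 of the 9 genes were abundant in these cultures, and versican and NG2 stood for nearly all counts of the lecticans and NG2. The order below *Bgn* depends on the length used: by the deposited FPKM, *Cspg4* ranked above *Dcn*, and *Vcan* fell from place 4 to place 6. Those FPKM were computed on the span of the gene including introns, which is 6.03 times the exon length for *Vcan* and 2.92 times for *Cspg4*.

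**Figure D1:**
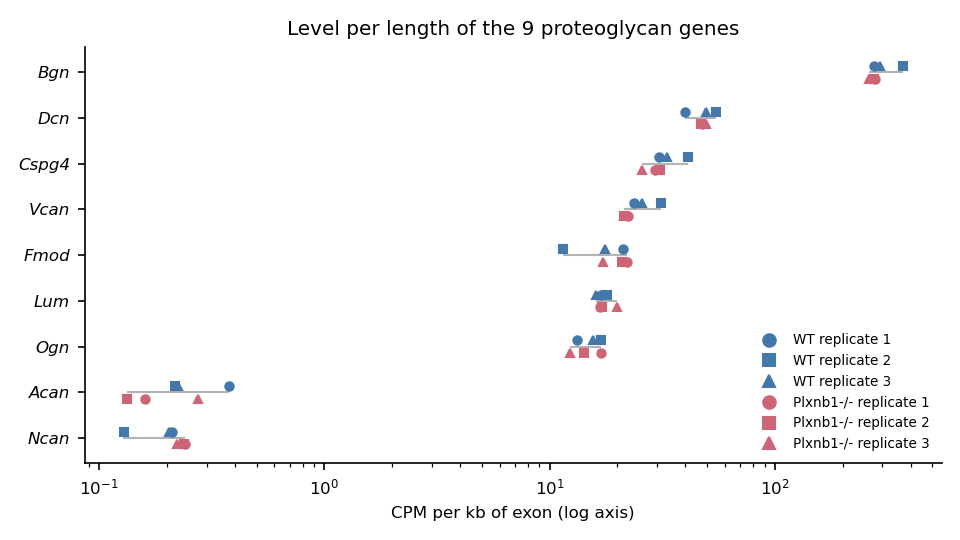
Expression of the 9 proteoglycan genes in CPM per kb of exon on a log10 axis, with 1 point for each library coloured by genotype and a grey line over the range. *Bgn* lay above all others (262 to 370.5) and *Acan* and *Ncan* lay lowest, both under 0.4.

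In CPM, *Bgn* alone made up 59.8% to 61.9% of the counts of the 9 genes in each library, *Cspg4* 11.6% to 13.4%, *Vcan* 11.1% to 12.4% and *Dcn* 8.43% to 10.9%. The summed level of the 9 genes was 2777, 3648 and 2977 CPM for WT (replicates 1, 2 and 3) against 2808, 2788 and 2644 CPM for Plxnb1-/-. The sum was highest in WT replicate 2, and the genotypes overlapped.

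Between genotypes, 6 of the 9 genes were lower and 3 higher in Plxnb1-/- SCs. Their log2 fold changes had a median of −0.08, beside 0.00496 over all tested genes. edgeR called 0 of the 9, and it called 8 of the 22318 tested genes (0.0358%). DESeq2 called 1 of the 9, *Vcan*, which was lower, and 1.50% of all tested genes (0.807% called lower). At an unadjusted p below 0.05 by edgeR, 2 of the 9 passed, *Vcan* and *Cspg4*, both lower, beside 13.7% of all tested genes (6.78% lower). The genotypes did not overlap in 2 of the 9 (22.2%), *Vcan* lower and *Ncan* higher, beside 19.7% of all tested genes (10.4% lower).

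**Figure D2:**
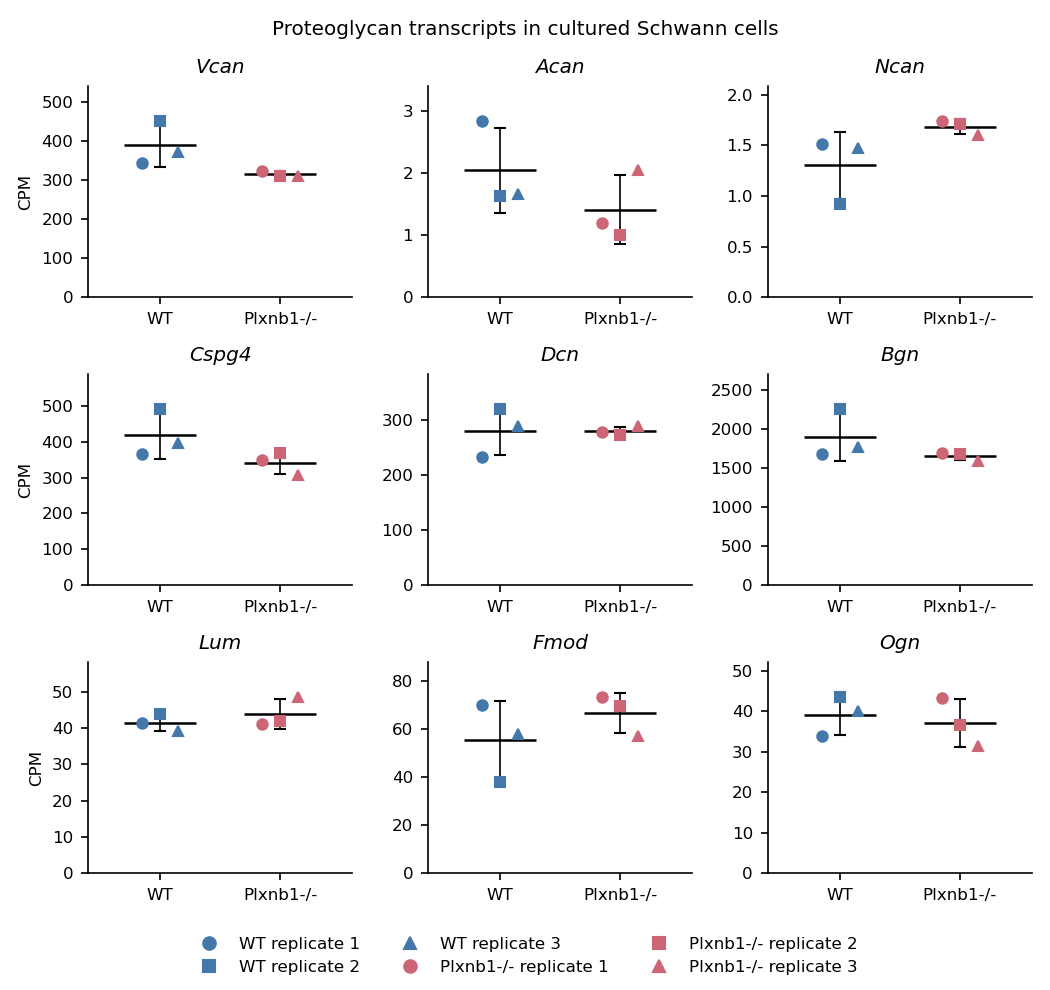
CPM of each of the 9 genes in the 3 WT and 3 Plxnb1-/- libraries, 1 panel for each gene, with a horizontal line at the genotype mean and whiskers of 1 SD. In *Vcan* all 3 WT points lie above the 3 Plxnb1-/- points, and in *Bgn* and *Cspg4* WT replicate 2 stands above the other 5 libraries.

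Among the lecticans and NG2, the abundant members *Vcan* and *Cspg4* had lower means in Plxnb1-/- SCs. *Vcan* had 343.5, 449.8 and 370.4 CPM in the WT libraries and 323.1, 309.2 and 309.2 CPM in the Plxnb1-/- libraries. Every Plxnb1-/- library was lower than every WT library, and the Plxnb1-/- libraries were the more alike. The means were 387.9 ± 55.3 and 313.9 ± 7.99 CPM (SD, n = 3), with a log2 fold change of −0.31 (SE 0.09, 95% interval −0.50 to −0.11). The adjusted p was 0.273 by edgeR and 0.0428 by DESeq2, which thus disagreed on the call. Without WT replicate 2 the log2 fold change was −0.18 by edgeR (adjusted p = 0.334) and −0.19 by DESeq2 (adjusted p = 0.0482), under the cutoff of 0.25. The DESeq2 call was lost in 5 of the 6 fits that left out 1 library and held only without WT replicate 1 (−0.39, adjusted p = 0.000894).

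*Cspg4* had 365.6, 490.6 and 397.1 CPM in WT and 348.9, 368.2 and 307.4 CPM in Plxnb1-/- libraries. Plxnb1-/- replicate 2 was above WT replicate 1, so the genotypes overlapped. The log2 fold change was −0.29 (SE 0.11, 95% interval −0.53 to −0.05), with an unadjusted p of 0.0230 and an adjusted p of 0.308 by edgeR and 0.118 by DESeq2. It was −0.16 by edgeR without WT replicate 2.

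*Acan* and *Ncan* had the fewest counts of the 9, all above the 3-count limit. *Acan* had 181, 95 and 118 counts in WT and 93, 72 and 142 counts in Plxnb1-/- libraries, with means of 2.04 ± 0.684 and 1.41 ± 0.561 CPM. The genotypes overlapped, and the log2 fold change of −0.54 had an interval from −1.22 to 0.15 (edgeR adjusted p = 0.465). It was −0.23 without WT replicate 1, −0.34 without Plxnb1-/- replicate 2 and −0.90 without Plxnb1-/- replicate 3. *Ncan* had 97, 54 and 104 counts in WT and 136, 124 and 111 counts in Plxnb1-/- libraries. At 1.30 ± 0.330 against 1.68 ± 0.0725 CPM every Plxnb1-/- library was above every WT library, but the log2 fold change of 0.36 had an interval from −0.07 to 0.80 (edgeR adjusted p = 0.434) and was 0.18 without WT replicate 2.

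Among the small leucine-rich proteoglycans, none had an adjusted p below 0.05 in either tool with all 6 libraries, and the genotypes overlapped in all 5. The unadjusted p of *Bgn* was 0.0709 by edgeR and 0.0432 by DESeq2. *Bgn* had 1684, 2260 and 1779 CPM in WT and 1697, 1687 and 1598 CPM in Plxnb1-/- libraries. WT replicate 2 was far above the other 5 libraries, which lay within 1598 to 1779 CPM. The log2 fold change of −0.20 (SE 0.10, 95% interval −0.42 to 0.02, edgeR adjusted p = 0.400, DESeq2 adjusted p = 0.294) was −0.06 without WT replicate 2.

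*Dcn*, which binds collagen fibrils and growth factors, had 234.0, 320.4 and 289.9 CPM in WT and 278.3, 273.3 and 288.9 CPM in Plxnb1-/- libraries. The WT libraries spanned the Plxnb1-/- libraries on both sides. Its means were the closest of the 9, 281.4 ± 43.8 and 280.2 ± 7.98 CPM, with a log2 fold change of −0.01 and a 95% interval from −0.23 to 0.21 (edgeR adjusted p = 0.986). Its neighbour *Lum* had 41.2, 43.8 and 39.2 CPM in WT and 41.0, 41.9 and 48.5 CPM in Plxnb1-/- libraries, with a log2 fold change of 0.08 (SE 0.07, 95% interval −0.08 to 0.24).

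*Fmod* had 69.9, 38.0 and 58.0 CPM in WT and 73.2, 69.4 and 57.0 CPM in Plxnb1-/- libraries. Here WT replicate 2 was the lowest library, and the log2 fold change of 0.27 (SE 0.19, 95% interval −0.16 to 0.69, edgeR adjusted p = 0.557) was 0.06 without it and 0.47 without WT replicate 1. *Ogn* had 33.8, 43.5 and 40.0 CPM in WT and 43.3, 36.5 and 31.5 CPM in Plxnb1-/- libraries, with a log2 fold change of −0.08 (SE 0.12, 95% interval −0.35 to 0.20). The 4 genes of the lecticans and NG2 had a median log2 fold change of −0.30, from −0.54 (*Acan*) to 0.36 (*Ncan*). The 5 small leucine-rich genes had one of −0.00639, from −0.20 (*Bgn*) to 0.27 (*Fmod*). These medians describe both groups without a test between them.

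**Figure D3:**
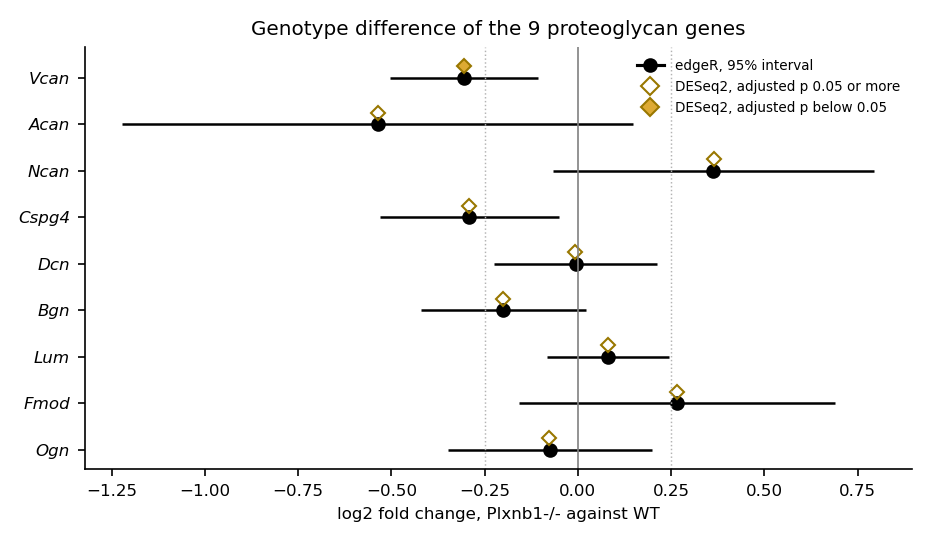
Log2 fold change of each of the 9 genes, Plxnb1-/- against WT, from edgeR (black, with its 95% interval) and from DESeq2 (diamonds, filled where its adjusted p is below 0.05). Dotted lines mark the fold cutoff of 0.25. The diamond is filled for *Vcan* alone, the intervals of *Vcan* (−0.50 to −0.11) and *Cspg4* (−0.53 to −0.05) lie below 0, and those of the other 7 genes include 0.

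The library that stood apart in these genes was WT replicate 2. It was the highest of the 6 libraries in 5 of the 9 genes (*Vcan*, *Cspg4*, *Dcn*, *Bgn* and *Ogn*), beside 25.1% of all tested genes, and the lowest in 2 (*Ncan* and *Fmod*), beside 27.0%. The summed markers of 4 cell types did not overlap between the genotypes, fibroblasts lower and SCs, macrophages and neurons higher in Plxnb1-/- cultures. Those of mural cells, endothelium, and chondrocytes and tendon overlapped. Of single tested genes, 19.7% did not overlap. The gap was small for SCs (highest WT sum 2908, lowest Plxnb1-/- sum 2939 CPM) and for macrophages (36.6 and 37.2 CPM). The summed level of 10 fibroblast markers was 1084, 1407 and 1169 CPM in WT and 1016, 1051 and 1002 CPM in Plxnb1-/- libraries. WT replicate 2 was again highest and the genotypes did not overlap, with 8 of 9 tested markers lower in Plxnb1-/- SCs (−0.32 as the median log2 difference). Most of the sum came from *Thy1*, *Gsn* and *Mfap5*, with log2 fold changes of −0.39, −0.01 and −0.62. *Pi16*, *Dpt*, *Clec3b*, *Ly6a* and *Tcf21* averaged under 1 CPM. *Pdgfra* had 73.0 ± 15.9 against 57.9 ± 1.39 CPM (−0.33, edgeR adjusted p = 0.315).

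The summed level of 10 SC markers was 2834, 2460 and 2908 CPM in WT and 2939, 3252 and 3308 CPM in Plxnb1-/- libraries. It was lowest in WT replicate 2, and 9 of the 10 markers were higher in Plxnb1-/- SCs (0.187 as the median log2 difference). Of both lists edgeR and DESeq2 called 0 genes, beside 0.0358% and 1.50% of all tested genes. At an unadjusted p below 0.05 by edgeR there were 3 fibroblast markers, all lower, and 8 SC markers, all higher. The same cutoff passed 13.7% of all tested genes (6.78% lower). Mural cell markers summed to 1461 to 1531 CPM in WT and 1483 to 1588 CPM in Plxnb1-/- libraries. Most of this sum came from *Pdgfrb*, highest in WT replicate 2, and *Mcam*, lowest in it (log2 fold changes −0.13 and 0.18). Macrophage markers summed to 32.5 to 36.6 CPM in WT and 37.2 to 43.3 CPM in Plxnb1-/- libraries, and neuron markers to 145 to 160 and 161 to 182 CPM, with 6 of 6 markers higher in each list (median log2 differences 0.241 and 0.361). The neuron sum was lowest in WT replicate 2 and came mostly from *Tubb3* (127 to 153 CPM), while *Rbfox3*, *Isl1* and *Snap25* averaged under 1 CPM. Over all tested genes, 11491 of 22318 were higher in Plxnb1-/- libraries. Endothelial markers (57.2 to 76.6 and 60.4 to 66.3 CPM) and chondrocyte and tendon markers (21.6 to 29.1 and 19.2 to 30.3 CPM) overlapped. In bulk RNA, fewer cells of a type and less RNA per cell cannot be told apart, and the part of cell composition in the values of *Vcan*, *Cspg4* and *Bgn* was not tested.

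**Figure D4:**
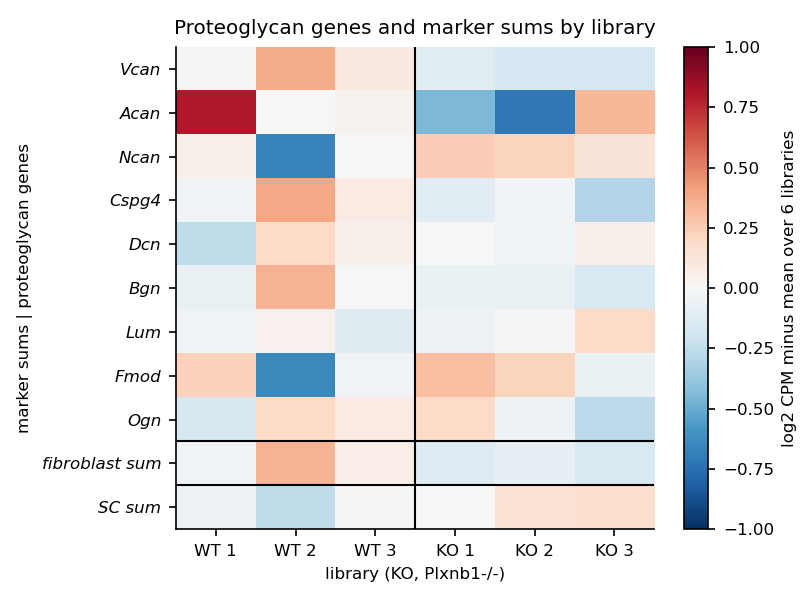
Level of each of the 9 genes and summed level of the fibroblast and SC marker lists in each library, coloured by log2 CPM minus the mean over the 6 libraries (red above, blue below). WT replicate 2 was the highest library in *Vcan*, *Cspg4*, *Dcn*, *Bgn*, *Ogn* and the fibroblast sum and the lowest in *Ncan*, *Fmod* and the SC sum.

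Genes whose levels over the 6 libraries were most like those of *Vcan* were searched among 10158 genes of at least 10 CPM. *Rnf41* (Pearson's r of log2 CPM 0.999), *Epha1* (0.9987) and *Sept11* (0.9985) were nearest, and their log2 fold changes were −0.11, −0.27 and −0.15. Among the nearest to *Dcn* were *Sparcl1* (0.9899) and *4931406P16Rik* (0.9878), with log2 fold changes of −0.08 and 0.00886. With 6 points that share genotype and library, r is given as a description.

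The genes that neighbour the 9 were mostly low. Of the link protein genes, *Hapln4*, beside *Ncan*, was the only one over 1 CPM (6.73 ± 0.297 in WT and 6.73 ± 0.331 CPM in Plxnb1-/-). *Hapln1*, beside *Vcan*, had 0.410 and 0.466 CPM, and *Hapln3*, beside *Acan*, 0.157 and 0.234 CPM. In the *Dcn* and *Lum* cluster, *Epyc* (epiphycan) had 11.3 ± 0.959 CPM for WT and 12.5 ± 1.88 CPM for Plxnb1-/- SCs. Near *Ogn*, *Aspn* (asporin) had 28.9 ± 5.21 and 24.5 ± 6.71 CPM (log2 fold change −0.24, edgeR adjusted p = 0.599), *Ecm2* 4.25 and 4.28 CPM, and *Omd* 0.313 and 0.470 CPM. Near *Fmod*, *Prelp* had 4.51 ± 1.24 and 5.71 ± 0.473 CPM (0.34, edgeR adjusted p = 0.436). Exons of *Epyc* (1041 bp), *Prelp* (350 bp) and *Aspn* (7 bp) overlap exons of genes on the opposite strand, and whether counting used strand was not stated.

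The other genes of proteoglycan biology were described as 6 lists. edgeR called 0 of the 70 tested list genes, and 20 (28.6%) had an unadjusted p below 0.05, beside 13.7% of all tested genes. DESeq2 called 1, *Esm1*, which encodes endocan, a small dermatan sulfate proteoglycan secreted by endothelial cells. *Esm1* had 22.3 ± 3.95 CPM for WT and 13.6 ± 1.15 CPM for Plxnb1-/- SCs, with no overlap, and a log2 fold change of −0.71 (SE 0.12, edgeR adjusted p = 0.168, DESeq2 adjusted p = 7.918e-06). DESeq2 called it in all 6 fits with 1 library left out (−0.80 to −0.56). It was highest in WT replicate 2, as were 4 of 5 endothelial markers, and 4 of the 5 were lower in Plxnb1-/- cultures (−0.33 as the median log2 difference). The most abundant of them, *Cdh5*, had a log2 fold change of −0.06, and *Tek* was higher (0.59). *Cldn5* and *Tek* averaged under 1 CPM. The part of endothelial cells in the *Esm1* result was not tested. Among the 11 other chondroitin sulfate proteoglycans and link proteins, 7 were higher and 4 lower (median 0.18), and *Bcan* (brevican, a brain lectican) had 5.65 ± 1.35 and 7.12 ± 1.51 CPM (0.33, edgeR adjusted p = 0.488). *Thbd* (thrombomodulin) was the highest per kb, at 135.7 ± 3.38 and 136.9 ± 6.86 CPM (0.01).

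Of the other small leucine-rich proteoglycans, 12 of 13 were tested, 7 higher and 5 lower (median 0.00911), with no overlap in 3 (25.0%, beside 19.7% of all tested genes). *Tsku* (tsukushi) was the highest per kb, at 55.6 ± 4.91 CPM for WT and 51.1 ± 1.96 CPM for Plxnb1-/- SCs (log2 fold change −0.12, edgeR adjusted p = 0.442). *Podn* (podocan) had 2.11 and 1.73 CPM (−0.28, edgeR adjusted p = 0.565).

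The 28 genes that build chondroitin and dermatan sulfate chains were split, 13 higher and 15 lower (median −0.06). At an unadjusted p below 0.05 there were 2 higher and 7 lower, beside 13.7% of all tested genes in either direction and 6.78% lower. The genotypes did not overlap in 6 (21.4%), near the 19.7% of all tested genes. *Chsy3*, a synthase of the chain, had the largest negative log2 fold change among those over 1 CPM (23.0 ± 5.38 and 18.5 ± 0.669 CPM, −0.32, edgeR adjusted p = 0.358), and *Chst7*, a 6-O-sulfotransferase, the largest positive one (1.71 and 2.05 CPM, 0.25). *Papss1*, which makes the sulfate donor, was the highest per kb, at 138 ± 10.3 and 152 ± 6.18 CPM (0.14, edgeR adjusted p = 0.348). Chosen after their values were seen, *Chst11* and *Chst12*, which sulfate chondroitin at the 4-O position, had log2 fold changes of −0.27 and −0.17 (edgeR adjusted p = 0.319 and 0.273). *Chst13*, a chondroitin 4-O-sulfotransferase of the same list, went the other way at low levels (0.0917 and 0.120 CPM, 0.38, edgeR adjusted p = 0.790).

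Of the 8 lysosomal enzymes that break the chains down, 6 were higher and 2 lower (median 0.05). *Hexa* was the highest per kb (195.5 ± 2.71 and 202.6 ± 15.0 CPM, 0.05), *Idua* had the largest positive log2 fold change (9.88 ± 0.630 and 11.1 ± 0.396 CPM, 0.17) and *Gusb* the largest negative one (−0.02). Exons of *Hexa* and *Idua* overlap those of genes on the opposite strand, and whether counting used strand was not stated.

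Of 7 ADAMTS proteases that cleave lecticans, 4 were higher and 3 lower (median 0.13). At an unadjusted p below 0.05 by edgeR there were 4, 2 in each direction, beside 13.7% of all tested genes. *Adamts1* was the highest per kb (212.6 ± 21.4 and 232.6 ± 5.71 CPM, log2 fold change 0.13). *Adamts20* had 38.5 ± 13.8 and 57.7 ± 13.6 CPM (0.58, SE 0.24, edgeR adjusted p = 0.348), and *Adamts15* had 8.16 ± 1.59 and 5.89 ± 1.16 CPM (−0.47, edgeR adjusted p = 0.308). Of 4 receptors that bind chondroitin sulfate, *Ptprf* (LAR) had 332.6 ± 32.0 and 389 ± 26.0 CPM (0.23, edgeR adjusted p = 0.293), and *Ptprs* (receptor type protein tyrosine phosphatase sigma) 494 ± 6.67 and 485.7 ± 19.1 CPM (−0.02).

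**Figure D5:**
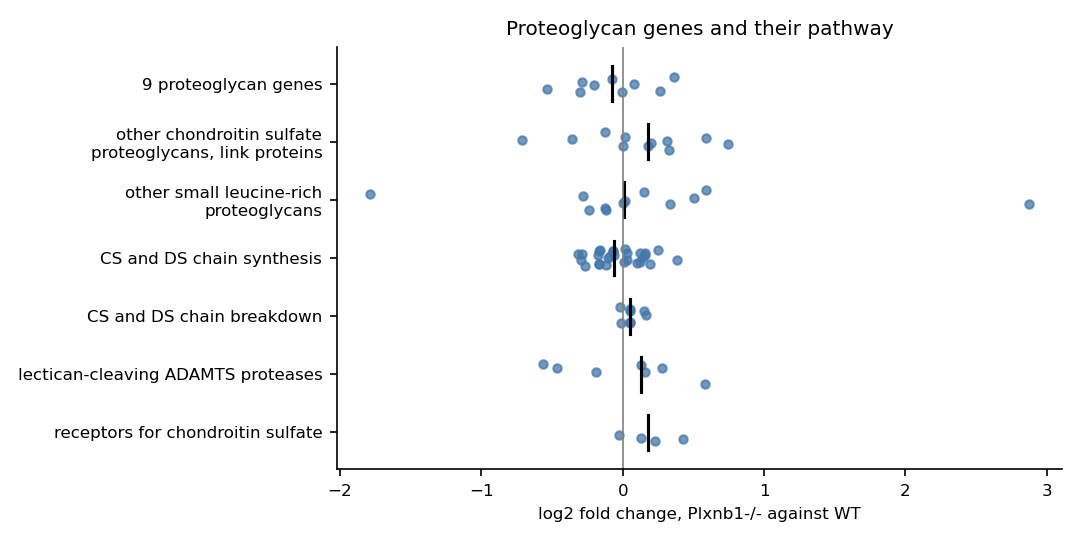
Log2 fold change, Plxnb1-/- against WT, of the tested genes of each list, with 1 point for each gene and a bar at the median of the list. Medians lie between −0.06 (chain synthesis) and 0.18 (other chondroitin sulfate proteoglycans and link proteins), beside −0.08 for the 9 proteoglycans and 0.00496 over all tested genes.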

How the data were processed

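Poly(A) RNA of 6 SC cultures was sequenced. Per the labels and the paper's methods, the authors trimmed reads with Trim Galore 0.6.5, aligned them to the mouse genome (mm10) with Bowtie2 2.4.1, removed duplicates with SAMtools 1.10 and counted them on exons with featureCounts. The authors deposited raw counts per gene, without normalization, and FPKM values, which use the gene span. Bowtie2 does not align reads across introns, so reads over exon junctions can be lost, more so in genes with many short exons. The strand setting was not stated.

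Genes were annotated with GENCODE models on GRCm38 (55141 of 55401 identifiers matched). A gene was kept with a minimum of 2 counts in 5 or more of the 6 libraries. Plxnb1-/- was compared with WT in edgeR 4.0.16 (R 4.3.3, TMM, quasi-likelihood F test, no covariates), with Benjamini-Hochberg adjustment over all 22318 tested genes and calls at adjusted p below 0.05 and absolute log2 fold change above 0.25. DESeq2 1.42.0 and limma 3.58.1, the latter on log2(FPKM + 0.1), served as alternatives. The SE is the log2 fold change over the square root of F. CPM use TMM library sizes of the tested genes. The same TMM library sizes set the 3-count limits, which cover counting error only, and the spread between libraries enters the SE. The fit was also run on simulated counts with planted changes. The simulation held no library that stands apart as WT replicate 2 does, so it cannot gauge the fit on such data. Summaries used Python 3.11.15 with NumPy 2.4.6, pandas 2.3.3 and SciPy 1.17.1.

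All 9 genes are named. From each pathway list, among genes of at least 1 CPM, those with the largest positive and negative log2 fold change, the highest CPM per kb and any call are named, and link proteins and neighbours were added after values were seen. Of the marker genes and the genes most like *Vcan* and *Dcn*, some are not reported here. The 9 genes and the lists were chosen with earlier results of these data known. The marker lists were for SCs, fibroblasts, mural cells, chondrocytes and tendon, macrophages, neurons and endothelium. Promoter motifs, and leaving out libraries in DESeq2, were chosen after seeing the data.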

Additional observations from a re-analysis of the deposited data

How the results depend on the processing

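The number of the 9 proteoglycan genes called was 0 by edgeR and 1 by DESeq2, and 0 to 3 over the fits that left out 1 library (3, *Vcan*, *Cspg4* and *Bgn*, by DESeq2 without WT replicate 1). Over all tested genes, 8 calls became 335 with DESeq2, 296 with no filter on low counts, 3 and 3 with limma at pseudocounts of 0.1 and 0.01, 5 with the replicate block, and 4 to 938 with 1 library left out (25 by edgeR without WT replicate 2). Among pathway list genes, 0 calls became 1 with DESeq2, 1 with no filter, and 0 to 7 with 1 library left out. The cause of these shifts was not tested.

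Of 198 alternative values of the log2 fold changes of the 9 genes, 180 kept direction and brought no call. Another 4 kept direction and were called, on adjusted p and fold change together. Values without a call could still cross the fold cutoff alone. By edgeR without WT replicate 2, *Vcan* (−0.18), *Cspg4* (−0.16), *Ncan* (0.18) and *Fmod* (0.06) fell under it, while *Acan* (−0.67) stayed beyond it. The other 14 of the 198 values turned direction, all in genes with log2 fold changes near 0. *Dcn* was 0.0167 and 0.0171 with limma at pseudocounts of 0.1 and 0.01 and 0.00518 with the replicate block, and ran from −0.124 to 0.0997 with 1 library left out. *Lum* ran from −0.000518 to 0.126 and *Ogn* from −0.205 to 0.0297 with 1 library left out. The labels do not say whether the replicate numbers pair the libraries. Deviations of same-numbered libraries from their genotype means correlated at −0.0218, 0.00782 and 0.0653, and not every library correlated best with its own number. With 3 libraries for each genotype, these values cannot show whether the libraries were paired. The block changed no call among the 9 genes. None of the 9 genes was at or under 3 counts in any library, and the lowest, *Acan* and *Ncan*, had 54 to 181 counts per library.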

Other observations

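Some cartilage, tendon, cornea and neural genes are named here for their values in single libraries, after these were seen. *Kera*, which encodes the corneal proteoglycan keratocan and lies beside *Lum*, had 0, 2 and 4 counts in the WT libraries and 12, 18 and 22 counts in the Plxnb1-/- libraries, an edgeR unadjusted p of 0.00205 and an adjusted p of 0.266. *Cspg5* (neuroglycan C), which lies 1.124 Mb from *Plxnb1* on chromosome 9, had 26, 22 and 20 counts in WT and 39, 38 and 53 counts in Plxnb1-/- libraries (log2 fold change 0.75, edgeR unadjusted p = 0.0221, adjusted p = 0.306). *Col2a1*, the collagen of cartilage, had 43 to 61 counts in WT libraries, 81 and 96 counts in Plxnb1-/- replicates 1 and 3, and 793 counts in Plxnb1-/- replicate 2. *Acan*, the main proteoglycan of cartilage, was lowest in that same library, with 72 counts. *Scx*, a tendon transcription factor, was called by DESeq2 (adjusted p = 0.0148) and not by edgeR.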
